A study of Mus musculus with 11 samples.

Results

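The 10 genes described here encode regulators of alternative splicing in the nervous system, and their RNA was followed through 4 kinds of mouse neural culture. They were the genes whose symbol in the RNA table was Ptbp1, Ptbp2, Nova1, Nova2, Rbfox1, Rbfox2, Rbfox3, Srrm4, Celf4 or Qk, 10 of the 37991 genes in the table. They filled 11 rows, because Qk was listed under a main row and a second row of 0.285 kb. All 11 libraries were compared by group.

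The cultures began as primary neural stem cells from the frontal cortex of E14.5 embryos of C57BL/6J mice, with no genetic change named in the labels. The NSC group (n = 3) was taken from the proliferation medium at day 0. The other groups had spent 4 days in a differentiation medium on a coated surface: the Astrocyte group (n = 3) in DMEM to which 1% fetal bovine serum and 1% N-2 supplement were added, the Neuron group (n = 3) in Neurobasal with 2% B-27 supplement, and the Oligodendrocyte group (n = 2) in that same Neurobasal medium plus 30 ng/mL of T3, a thyroid hormone. Every medium given for differentiation also held GlutaMAX. The group names stand for the medium, and how many embryos went into a culture is not given in the sources used here. No culture was kept in proliferation medium to day 4, so time and medium cannot be told apart in a comparison with NSC.

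Alternative splicing joins the exons of a transcript in different combinations, and RNA-binding proteins decide which exons are kept. PTBP1 binds pyrimidine-rich stretches and represses many neural exons in dividing progenitors and non-neural cells. Its paralog PTBP2 takes over during neuronal development and is itself held down by PTBP1, which promotes skipping of a short exon in the Ptbp2 transcript so that the message is degraded by nonsense-mediated decay (NMD). NOVA, RBFOX, CELF and SRRM4 proteins act on neuronal exon programs, and quaking (Qk) is best known from glia and myelin. The table held 1 value per gene, so what follows is RNA abundance of the regulators and not the splicing of any exon.

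The exon at the centre of the Ptbp1 to Ptbp2 relation has a counterpart in Ptbp1, and both are shown because the balance of the genes is the main comparison made here. In the GENCODE M21 annotation of build GRCm38 each is exon 10 of 14 and 34 bases long, which is not a multiple of 3. Capitals mark the positions identical in both, 26 of 34 (76.5%), and each sequence is read 5′ to 3′ on the strand of its gene.
Ptbp1 exon, chr10:79862014-79862047, plus strand: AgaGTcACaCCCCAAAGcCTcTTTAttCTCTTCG
Ptbp2 exon, chr3:119724612-119724645, minus strand: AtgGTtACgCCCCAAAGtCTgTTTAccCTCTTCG
In both genes all 3 annotated coding transcripts that span the exon contain it, and 2 transcripts annotated as NMD targets lack it. Reads from transcripts with and without the exon count toward the same gene value, so the CPM of Ptbp2 does not separate them.

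The 250 bases before each gene's start were taken from RefSeq (GRCm38.p6) for the same pair, since their RNA changed by different amounts in these cultures. Capitals mark CACGTG or CGGAAG, searched as these letters on both strands; neither overlaps the other.
Ptbp1 promoter, chr10:79854182-79854431, plus strand: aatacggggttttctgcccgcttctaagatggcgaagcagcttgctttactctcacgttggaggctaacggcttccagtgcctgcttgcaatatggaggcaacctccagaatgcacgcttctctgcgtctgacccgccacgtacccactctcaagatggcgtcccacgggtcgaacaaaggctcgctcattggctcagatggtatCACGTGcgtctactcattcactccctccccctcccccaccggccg
Ptbp2 promoter, chr3:119783389-119783638, minus strand: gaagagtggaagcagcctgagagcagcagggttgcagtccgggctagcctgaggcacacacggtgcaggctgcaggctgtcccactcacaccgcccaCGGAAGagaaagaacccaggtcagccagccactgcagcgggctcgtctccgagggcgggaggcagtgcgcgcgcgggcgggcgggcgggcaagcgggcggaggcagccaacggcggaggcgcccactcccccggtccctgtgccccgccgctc
The Ptbp1 window held CACGTG, an E-box, which 6.02% of 32851 promoter windows of the same length held, and no CGGAAG. The Ptbp2 window held CGGAAG, the core of an ETS site, found in 13.6% of windows, and 6 copies of GGGCGG, overlapping copies counted, a motif that 32.7% of windows held. The windows held 17 and 23 CpG dinucleotides, against a median of 6 over all windows. Of the 10 genes 8 had an entry in the promoter table. A match of these letters is a description of the window.

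The estimated depth was 49.3 to 66.2 M reads per library (M for mega), and 11790 to 12710 genes per library reached 1 CPM (reads scaled to a common library total). The cell-cycle genes named for this check summed to 2464 to 2549 CPM in NSC and to 39.6 to 98.1 CPM in the day 4 libraries, with all 8 lower in each day 4 group. Markers of the labelled types were mixed. The 8 astrocyte markers summed to 12538 to 14065 CPM in Astrocyte, mostly Gfap, and to 6965 to 7549 CPM in Neuron. Of these 8, 3 were higher in Astrocyte than in Neuron (Gfap, Aqp4 and Gja1) and 4 were lower (Slc1a2, S100b, Aldh1l1 and Aldoc). Over all tested genes 40.3% were higher and 22% lower in that comparison. The 8 mature oligodendrocyte markers summed to 2631 to 2803 CPM in Neuron against 2527 to 2893 CPM in Oligodendrocyte. Of the 10 neuron markers 7 were tested; Stmn2, Nefl and Nefm stayed under 1 CPM in all 11 libraries. Against NSC 5 of the 7 rose and 1 fell in Neuron, and 4 rose and 3 fell in both Astrocyte and Oligodendrocyte. Over all tested genes 43.5% rose and 39.6% fell in Neuron. The shares were 48% and 35.6% in Astrocyte and 48.1% and 32.2% in Oligodendrocyte. The early neuronal gene Dcx went from 1.60 CPM in NSC to 124.8 in Astrocyte, 147.7 in Neuron and 86.6 in Oligodendrocyte, and Tubb3 from 3.90 to 41.2, 28.4 and 44.8 CPM. The sum of the 10 overlapped between Neuron (939 to 1217 CPM) and NSC (938 to 1020 CPM), and was carried by Map2 (885.3 CPM in NSC, 865.6 in Neuron). All 6 microglia markers stayed under 1 CPM, as did 5 of the 7 mesenchymal and endothelial markers. Pdgfrb did not, going from 0.263 CPM in NSC to 41.9 in Astrocyte, 37.5 in Neuron and 8.82 in Oligodendrocyte. Kdr reached at most 7.07 CPM. The 6 oligodendrocyte precursor markers summed to 1790.2 to 1920.5 CPM in NSC and 1602.8 to 2160.7 CPM in Neuron. Their sum was 706.6 to 794.4 CPM in Astrocyte and 1335.1 to 1458.3 CPM in Oligodendrocyte. In bulk RNA fewer cells of a type and less RNA per cell cannot be told apart, and the part of cell composition in the values below was not tested.

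Of the 10 regulators, 9 reached 1 CPM in at least 2 libraries and were tested; Rbfox1 and the second Qk row did not. Calls are adjusted p-values under 0.05 from limma on log2(CPM + 1), a scale that understates fold changes of low genes. Against NSC, 3 regulators rose and 4 fell in Astrocyte, 6 rose and 2 fell in Neuron, and 3 rose and 2 fell in Oligodendrocyte. These counts stand against a broad response, since 83.6% of the 13342 tested genes were called in Astrocyte (48% higher, 35.6% lower), 83.1% in Neuron (43.5% higher, 39.6% lower) and 80.2% in Oligodendrocyte (48.1% higher, 32.2% lower). The called share of the regulators, 7, 8 and 5 of 9, is near or under that background and is not a result about them; the direction and size for each gene are. Their median log2 fold changes were -0.12, 0.36 and -0.09, beside 0.15, 0.06 and 0.19 over all tested genes. The libraries of NSC and the medium did not overlap for 7 of the 9 in Astrocyte, 8 in Neuron and 7 in Oligodendrocyte, beside 86.2%, 83.2% and 89.3% of all tested genes.

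**Figure D1:**
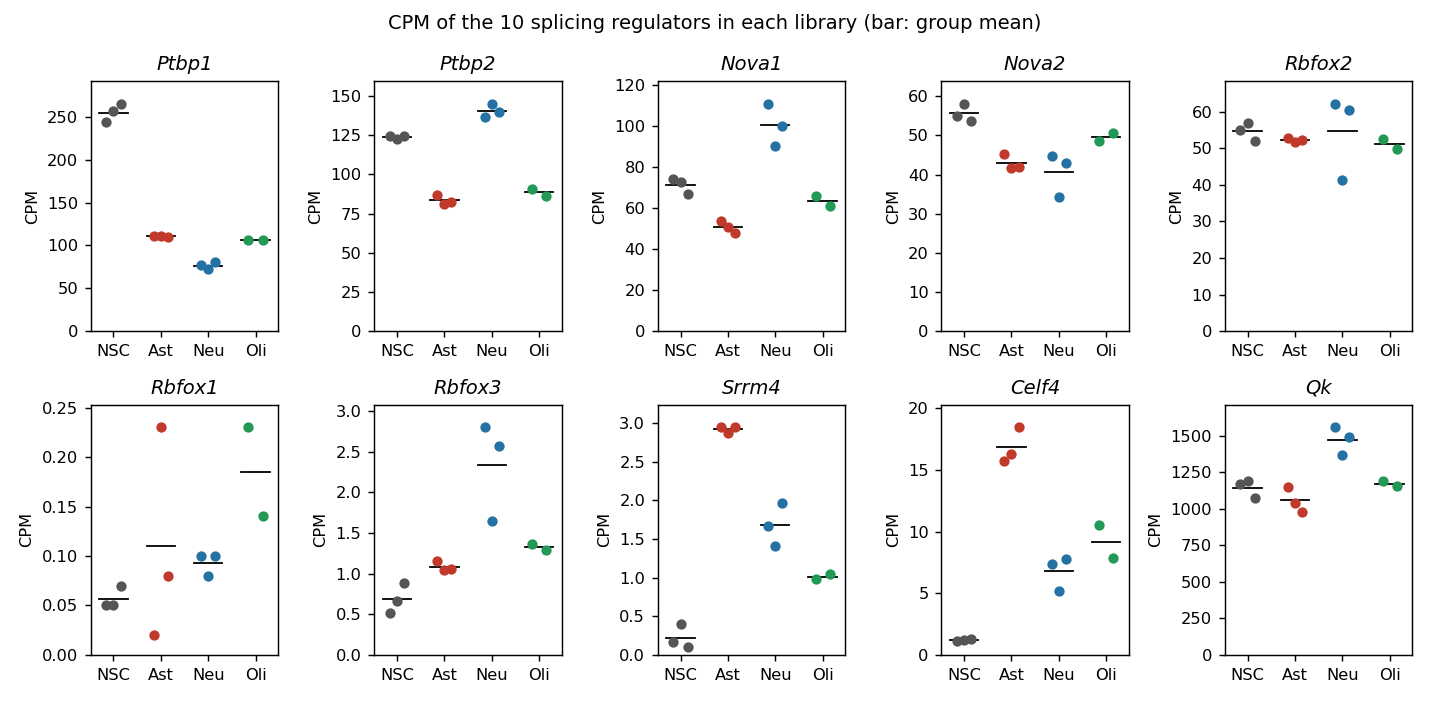
CPM (vertical axes, each starting at 0) of the 10 regulators in each of the 11 libraries; points are libraries, bars are group means, and Ast, Neu and Oli stand for Astrocyte, Neuron and Oligodendrocyte. Ptbp1 is highest in the 3 NSC libraries (243.6 to 265.3 CPM), Ptbp2 and Nova1 are highest in Neuron, and Celf4 and Srrm4 are highest in Astrocyte.

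Ptbp1 (ENSMUSG00000006498, mm9 chromosome 10, 79317172 to 79327516, plus strand) fell in all 3 media, and most in Neuron. It was at 243.6, 256.3 and 265.3 CPM in the NSC libraries and at 77.3, 72.0 and 80.5 CPM in the Neuron libraries. It was at 111.5, 111.6 and 110.2 CPM in Astrocyte and at 106.0 and 106.4 CPM in Oligodendrocyte. The NSC libraries lay above all others and the Neuron libraries below all others, with no overlap between any pair of groups. From a mean of 255.1 ± 10.9 CPM (SD, n = 3) it fell 3.33-fold to 76.6 ± 4.26 CPM (SD, n = 3) in Neuron, a log2 fold change of -1.72 (95% interval -1.85 to -1.60; adjusted p 4.23e-12 in limma). The log2 fold change was -1.19 in Astrocyte (SE 0.057, adjusted p 1.70e-10) and -1.26 in Oligodendrocyte (SE 0.063, adjusted p 4.26e-10). Astrocyte and Oligodendrocyte did not pass the test against each other (log2 difference -0.06, 95% interval -0.20 to 0.07; -0.15 with an adjusted p of 0.0268 after quantile normalization), whereas Ptbp1 was higher than in Neuron in both (0.53 and 0.47, adjusted p 2.84e-06 and 2.36e-05). All 8 cell-cycle genes fell in the same day 4 libraries, and their part in the Ptbp1 values was not tested. BC005764, which overlaps Ptbp1 on the opposite strand, went from 0.477 CPM in NSC to 11.2 in Astrocyte, 16.4 in Neuron and 5.25 in Oligodendrocyte; whether the counting used strand is not given in the sources used here.

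Ptbp2 (ENSMUSG00000028134, mm9 chromosome 3, 119421660 to 119486306, minus strand) moved in opposite directions from NSC depending on the medium. The NSC libraries were at 124.2, 122.6 and 124.5 CPM. The Neuron libraries were at 136.6, 145.0 and 139.9 CPM, all above NSC. The Astrocyte libraries were at 87.1, 81.2 and 82.4 CPM and the Oligodendrocyte libraries at 91.0 and 86.2 CPM, all below NSC and overlapping each other. Ptbp2 thus rose slightly in Neuron, 1.13-fold by mean CPM (log2 fold change 0.18, 95% interval 0.07 to 0.30; adjusted p 0.00629), and fell in Astrocyte (-0.56, SE 0.053, adjusted p 2.52e-07) and Oligodendrocyte (-0.48, SE 0.059, adjusted p 4.98e-06). These calls kept their direction and side of the threshold under all 21 alternatives. The direct contrasts with Neuron were -0.74 for Astrocyte (adjusted p 6.47e-08) and -0.66 for Oligodendrocyte (adjusted p 5.06e-07), and Oligodendrocyte vs Astrocyte gave 0.08 (95% interval -0.04 to 0.21; adjusted p 0.254).

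The Ptbp1 to Ptbp2 balance was computed per library as the log2 ratio of Ptbp1 CPM + 1 to Ptbp2 CPM + 1, so that 0 means equal CPM. It was 0.97, 1.06 and 1.08 in the NSC libraries, 0.35, 0.45 and 0.42 in Astrocyte, 0.22 and 0.30 in Oligodendrocyte, and -0.814, -0.999 and -0.790 in Neuron. The groups did not overlap for any of the 6 pairs, and the balance was below 0 in all 3 Neuron libraries and in no other library. The CPM ratio of Ptbp1 to Ptbp2 went from 2.06 ± 0.089 (SD, n = 3) in NSC to 1.33 ± 0.048 (SD, n = 3) in Astrocyte, 1.20 ± 0.048 (SD, n = 2) in Oligodendrocyte and 0.546 ± 0.043 (SD, n = 3) in Neuron.

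The mean balance of the 8 day 4 libraries was 1.14 lower than that of NSC on the log2 scale (two-sided exact permutation test, p = 0.0121). That mean pools 3 media with different balances, so the 1.14 describes no single medium. Among the 3 media the group means spanned 1.28 on the log2 scale (exact permutation test over 560 arrangements, p = 0.00357). The contrast with NSC lost its call when any NSC library was left out (differences of -1.18, -1.13 and -1.12; exact permutation p = 0.0667, 0.0889 and 0.0889) and reached p = 0.05 without Neuron replicate 1 or 3 (-1.04 and -1.05). The pairwise differences are given as values: -0.63, -1.90 and -0.78 against NSC for Astrocyte, Neuron and Oligodendrocyte, 1.28 and 1.13 against Neuron for Astrocyte and Oligodendrocyte, and -0.15 for Oligodendrocyte against Astrocyte. An exact permutation test of 1 pair of groups cannot go below p = 0.1 here, and none was run.

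Levels of different genes are comparable only per length. The merged exons in GENCODE M21, which need not be the annotation used for counting, span 4.74 kb in Ptbp1 and 9.18 kb in Ptbp2. Per kb of exon, mean Ptbp1 was 53.8 CPM per kb in NSC, 23.4 in Astrocyte, 22.4 in Oligodendrocyte and 16.2 in Neuron. Mean Ptbp2 was 13.5, 9.11, 9.66 and 15.3 CPM per kb in the same groups. On that scale mean Ptbp1 was above mean Ptbp2 in every group, narrowly in Neuron. By library the ratio per kb in Neuron was 1.09, 0.962 and 1.11, so Ptbp2 was the higher in Neuron replicate 2 and Ptbp1 in the other Neuron libraries. Which gene is the higher in Neuron therefore depends on the scale and the library.

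**Figure D2:**
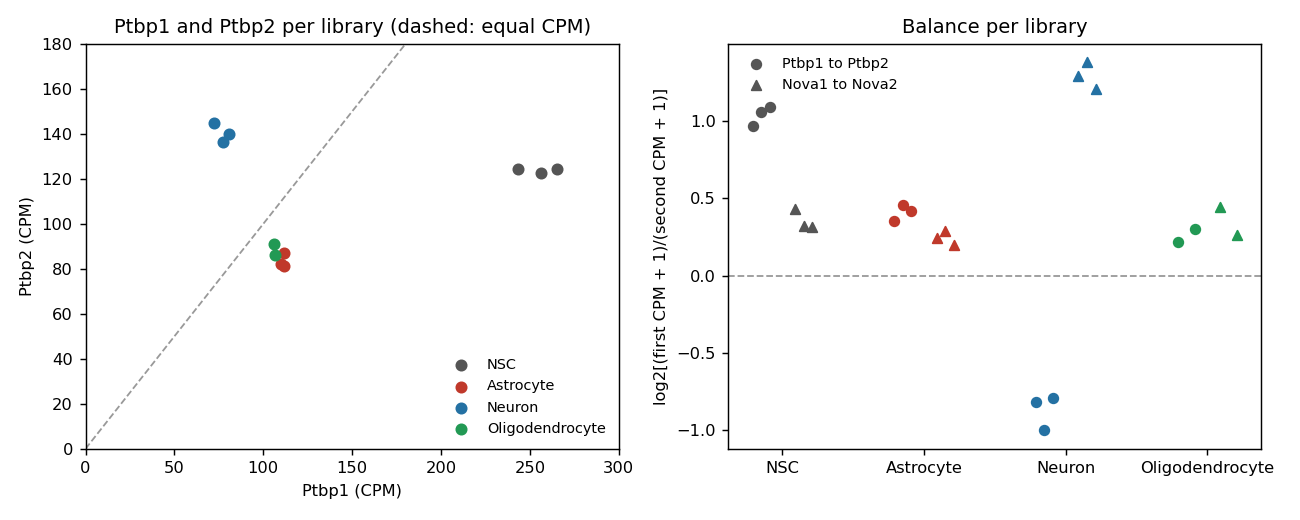
Left, Ptbp1 CPM (horizontal) against Ptbp2 CPM (vertical) for each of the 11 libraries, with equal CPM dashed; right, log2 balance per library for Ptbp1 to Ptbp2 (circles) and Nova1 to Nova2 (triangles), 0 being equal CPM. The 3 Neuron libraries lie above the dashed line and the other 8 below it, and Neuron has the lowest Ptbp1 to Ptbp2 balance and the highest Nova1 to Nova2 balance.

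Nova1 and Nova2 encode paralogous RNA-binding proteins of the brain. Nova1 (ENSMUSG00000021047, mm9 chromosome 12, 47795504 to 47919762) rose in Neuron and fell in Astrocyte. The Neuron libraries were at 111.0, 90.5 and 100.1 CPM, above the NSC libraries at 74.3, 72.6 and 67.1 CPM. The Astrocyte libraries, at 53.6, 51.0 and 48.2 CPM, lay below all others, and the Oligodendrocyte libraries were at 66.1 and 61.0 CPM, just under NSC. The log2 fold change against NSC was 0.49 in Neuron (SE 0.077, adjusted p 5.06e-05) and -0.48 in Astrocyte (SE 0.077, adjusted p 5.61e-05). In Oligodendrocyte it was -0.16 (95% interval -0.35 to 0.02; adjusted p 0.0945). Astrocyte vs Neuron differed by -0.96 (adjusted p 1.84e-07), and Oligodendrocyte lay above Astrocyte by 0.31 (adjusted p 0.00798; 0.0863 without Oligodendrocyte replicate 1).

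Nova2 (ENSMUSG00000030411, mm9 chromosome 7, 19510698 to 19551031) had a different pattern and rose in no medium. It was at 55.0, 58.1 and 53.7 CPM in NSC, 45.2, 41.5 and 41.9 in Astrocyte, 44.8, 34.2 and 42.9 in Neuron, and 48.5 and 50.6 in Oligodendrocyte. NSC lay above every other library. Nova2 fell in Astrocyte (log2 fold change -0.37, adjusted p 0.00142) and Neuron (-0.45, adjusted p 0.000276), and was at -0.16 in Oligodendrocyte (95% interval -0.37 to 0.05; adjusted p 0.138). In Oligodendrocyte vs NSC both Nova genes were called lower under median-of-ratios scaling, Nova1 at -0.36 (adjusted p 0.000949) and Nova2 at -0.36 (adjusted p 0.00187), and without Neuron replicate 2 (adjusted p 0.0362 and 0.0234). Quantile normalization (adjusted p 0.019 and 0.0246) and a limma fit of only the 2 groups (adjusted p 0.0287 and 0.0237) also called both lower. Nova2 was higher in Oligodendrocyte than in Neuron by 0.29 (adjusted p 0.018), a call lost when either Oligodendrocyte library was left out (0.32 and 0.26; adjusted p 0.0516 and 0.108) and under median-of-ratios scaling (0.14, adjusted p 0.182). It was also lost under quantile normalization (0.11, adjusted p 0.295) and in a limma fit of only the 2 groups (adjusted p 0.0672).

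Because Nova1 rose in Neuron while Nova2 fell, the log2 Nova1 to Nova2 balance was 1.29 ± 0.087 (SD, n = 3) there. It was 0.35 ± 0.065 (SD, n = 3) in NSC, 0.24 ± 0.046 (SD, n = 3) in Astrocyte and 0.35 ± 0.12 (SD, n = 2) in Oligodendrocyte. The lowest Neuron library, at 1.20, stood above the highest of the other 8, at 0.44, while Oligodendrocyte overlapped both NSC and Astrocyte. This balance is given as a description.

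The RBFOX proteins bind GCAUG in introns and exons, and the family has 3 genes. Rbfox2 (ENSMUSG00000033565, mm9 chromosome 15, 76909420 to 77137483), the broadly expressed one, had the highest level per kb of exon of the 3 in every group. It was at 55.0, 56.9 and 52.0 CPM in NSC, 52.7, 51.9 and 52.3 in Astrocyte, 62.2, 41.4 and 60.5 in Neuron, and 52.6 and 49.7 in Oligodendrocyte. The libraries of every pair of groups overlapped. No comparison passed the test, and the log2 fold changes against NSC were -0.06 in Astrocyte (95% interval -0.31 to 0.19), -0.02 in Neuron (-0.27 to 0.23) and -0.09 in Oligodendrocyte (-0.37 to 0.19). Median-of-ratios scaling called the last of these lower (-0.29, adjusted p 0.039).

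Neuron replicate 2 decided the Rbfox2 result in that group. Without it Rbfox2 was higher in Neuron than in NSC (0.17, adjusted p 0.0155), and lower in Astrocyte (-0.23, adjusted p 0.00285) and Oligodendrocyte (-0.26, adjusted p 0.00196) than in Neuron. That library was the lowest of the 3 Neuron libraries for 8 of the 9 tested regulators, Ptbp2 being the exception, beside 49.4% of all tested genes for which it was the lowest. Genes of the mitochondrial genome took 11.4% of its listed CPM, the highest share of the 11 libraries (range 6.01% to 11.4%); their part in the values was not tested.

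Rbfox3, which encodes the neuronal nuclear antigen NeuN, was low throughout and highest in Neuron. It was at 0.51, 0.66 and 0.88 CPM in NSC, 1.16, 1.04 and 1.06 in Astrocyte, 2.80, 1.65 and 2.57 in Neuron, and 1.36 and 1.29 in Oligodendrocyte, which corresponds to an estimated 30 to 158 reads per library. All day 4 libraries lay above NSC and all Neuron libraries above the rest. The log2 fold change was 0.98 in Neuron (SE 0.13, adjusted p 7.00e-06), 0.47 in Oligodendrocyte (adjusted p 0.00759) and 0.32 in Astrocyte (adjusted p 0.0332). After quantile normalization Rbfox3 reversed in Astrocyte (-0.36, adjusted p 0.01) and Oligodendrocyte (-0.19, adjusted p 0.178). The Astrocyte call was also lost without NSC replicate 1 or 2 or any Astrocyte library (adjusted p 0.0553 to 0.136), with a pseudocount of 5 (0.0858), under median-of-ratios scaling (0.0773) and with no filter (0.0652). The rise in Neuron was called under all 21 alternatives, with values from 0.37 to 1.63 at pseudocounts of 5 and 0.1.

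Rbfox1 was near the limit of detection, at 0.02 to 0.23 CPM or an estimated 1 to 15 reads per library, and was not tested. It was at 0.05, 0.05 and 0.07 CPM in NSC and at 0.02, 0.23 and 0.08 CPM in Astrocyte. The Neuron libraries were at 0.1, 0.08 and 0.1 CPM and the Oligodendrocyte libraries at 0.23 and 0.14 CPM. The lowest value was thus in Astrocyte, and the highest was reached in both Astrocyte and Oligodendrocyte. Per kb of exon, mean Rbfox2 was at 6.71 CPM per kb in NSC and 6.72 in Neuron, Rbfox3 at 0.117 and 0.402, and Rbfox1 at 0.0129 and 0.0212.

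Srrm4 and Celf4 had the largest rises among the 10 genes, and both peaked in Astrocyte rather than in Neuron. Of the 7 tested neuron markers 4 also rose in Astrocyte against NSC, among them Dcx and Tubb3 (to 124.8 and 41.2 CPM). The other 3 fell there: Map2, Syt1 and Gap43 (-0.55, -0.70 and -2.32 on the log2 scale). Over all tested genes 48% were higher and 35.6% lower in Astrocyte than in NSC. Mean Dcx was higher in Neuron, at 147.7 CPM, and mean Tubb3 was lower there, at 28.4 CPM. For both genes the Astrocyte and Neuron libraries overlapped. Of the 7 markers, 1 was higher and 4 were lower in Astrocyte than in Neuron, beside 40.3% and 22% of all tested genes. The part of neuronal cells in the Srrm4 and Celf4 values was not tested. Srrm4 (ENSMUSG00000063919, mm9 chromosome 5, 116889281 to 117041826) encodes the activator of neuronal microexons. It was at 0.17, 0.40 and 0.10 CPM in NSC, an estimated 10, 23 and 6 reads. It was at 2.94, 2.87 and 2.94 CPM in Astrocyte, 1.66, 1.41 and 1.97 in Neuron, and 0.98 and 1.04 in Oligodendrocyte. No pair of groups overlapped, and the order Astrocyte, Neuron, Oligodendrocyte, NSC held with a called difference at each step (0.55, 0.41 and 0.72 on the log2 scale; adjusted p 0.000467, 0.0074 and 6.63e-05). By mean CPM the rise from NSC was 13.1-fold in Astrocyte, 7.52-fold in Neuron and 4.52-fold in Oligodendrocyte, which on the log2(CPM + 1) scale was 1.69, 1.13 and 0.72. With a pseudocount of 0.1 the 3 values were 3.33, 2.56 and 1.89, and with 5 the Astrocyte and Neuron values were 0.60 and 0.35. The Oligodendrocyte call was lost under quantile normalization (0.12, adjusted p 0.362), and the step from Neuron to Oligodendrocyte with a pseudocount of 0.1 (-0.67, adjusted p 0.0637).

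Celf4 (ENSMUSG00000024268, mm9 chromosome 18, 25636133 to 25912484) encodes a CELF family protein of neurons that binds mRNA in nucleus and cytoplasm. It was at 1.11, 1.17 and 1.26 CPM in NSC and at 15.7, 16.3 and 18.4 CPM in Astrocyte, 14.3-fold higher by mean. The Neuron libraries were at 7.41, 5.15 and 7.78 CPM and the Oligodendrocyte libraries at 10.5 and 7.83 CPM. The log2 fold changes against NSC were 3.03, 1.82 and 2.21 (adjusted p 7.84e-11, 1.95e-08 and 9.50e-09), and Astrocyte lay above Neuron by 1.21 (adjusted p 4.08e-06). With a pseudocount of 5 the rises were 1.82, 0.92 and 1.19. Oligodendrocyte was above Neuron by 0.39 (adjusted p 0.0333), with the lowest Oligodendrocyte library (7.83 CPM) just above the highest Neuron library (7.78 CPM). That call was lost without Neuron replicate 2 (0.23, adjusted p 0.0957) or Oligodendrocyte replicate 1 (0.20, adjusted p 0.352) and under median-of-ratios scaling (0.26, adjusted p 0.126). It was also lost under quantile normalization (0.19, adjusted p 0.264), with no filter (adjusted p 0.0896) and in a limma fit of only the 2 groups (adjusted p 0.0901).

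Qk (ENSMUSG00000062078, mm9 chromosome 17, 10399336 to 10512245), which encodes the quaking RNA-binding proteins, was the most abundant of the 10 in every group. Per kb of exon it was at 80.4 CPM per kb in NSC, 74.3 in Astrocyte, 103.5 in Neuron and 82.4 in Oligodendrocyte. The Neuron libraries were at 1558, 1372 and 1492 CPM, above the NSC libraries at 1172, 1193 and 1072 CPM. The Astrocyte libraries, at 1152, 1043 and 978.5 CPM, and the Oligodendrocyte libraries, at 1188 and 1159 CPM, overlapped NSC. Qk rose in Neuron by 0.36 on the log2 scale (SE 0.083, adjusted p 0.00106), and the log2 fold changes in Astrocyte and Oligodendrocyte were -0.12 (95% interval -0.29 to 0.06) and 0.04 (-0.16 to 0.24). Quantile normalization took away the Neuron call (0.12, adjusted p 0.257) and called Astrocyte lower (-0.38, adjusted p 0.00229), as did median-of-ratios scaling (-0.27, adjusted p 0.00726). Qk was lower than in Neuron in Astrocyte (-0.48, adjusted p 0.000207) and Oligodendrocyte (-0.33, adjusted p 0.00677) under all 21 alternatives. The second Qk row stayed at 0.02 to 0.12 CPM.

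**Figure D3:**
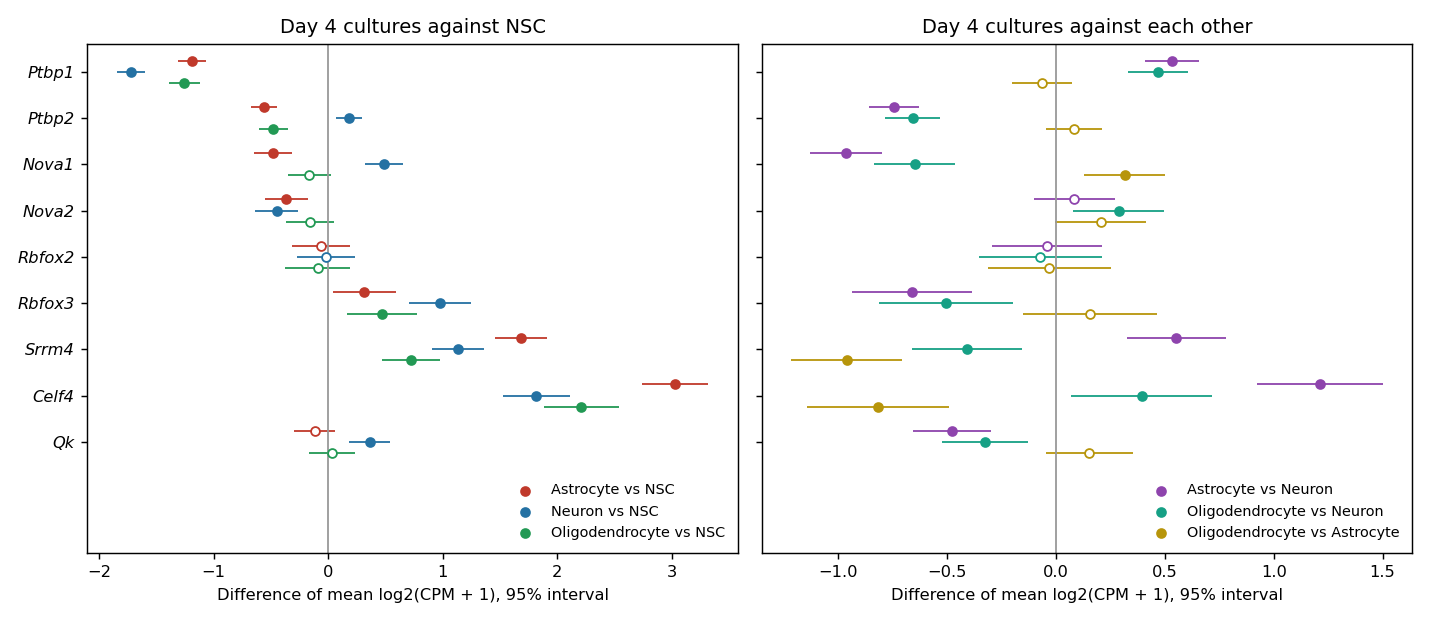
Difference of mean log2(CPM + 1) (horizontal) with its 95% interval for the 9 tested regulators, against NSC (left) and between day 4 groups (right); filled points passed an adjusted p of 0.05 in limma and open points did not. Ptbp1 lies left of 0 in all 3 media, Srrm4 and Celf4 lie right of it, and Ptbp2 and Nova1 are higher than NSC only in Neuron among the media shown.

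Between the differentiation media, 3 of the 9 tested regulators were higher and 4 lower in Astrocyte than in Neuron, where 62.2% of all genes were called, 40.3% higher and 22% lower. Oligodendrocyte vs Neuron gave 3 higher and 5 lower (67.5% of all genes called, 43.9% higher and 23.6% lower). Oligodendrocyte vs Astrocyte gave 1 higher and 2 lower (52.2% called, 28.7% higher and 23.5% lower). Libraries did not overlap for 7, 8 and 7 of the 9 in these comparisons, beside 63%, 75.7% and 71.7% of all genes. The genes lower in both media than in Neuron were Ptbp2, Nova1, Rbfox3 and Qk, and those higher in both were Ptbp1 and Celf4. Srrm4 was higher than Neuron in Astrocyte and lower in Oligodendrocyte. The contrasts share the Neuron libraries. Over all genes the split depended on scaling: 5371 higher and 2930 lower in Astrocyte vs Neuron became 4304 and 3982 under median-of-ratios scaling, and 5859 and 3147 in Oligodendrocyte vs Neuron became 4543 and 4276.

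Of the wider family of neural splicing and RNA-binding regulators, 19 of 23 listed genes were tested. In Astrocyte 8 rose and 10 fell, in Neuron 7 rose and 9 fell, and in Oligodendrocyte 8 rose and 11 fell. The number called, 18, 16 and 19 of 19, stands beside 83.6%, 83.1% and 80.2% of all tested genes, and nothing particular to the list is read from it. Their median log2 fold changes were -0.59, -0.13 and -0.49, beside 0.15, 0.06 and 0.19 over all tested genes. Ptbp3, the remaining member of the Ptbp family, fell in all 3, from 111.9 ± 3.06 CPM (SD, n = 3) in NSC. Neuron was at 62.4 ± 1.88 CPM (SD, n = 3), with a log2 fold change of -0.83 (adjusted p 4.20e-08), which was -1.37 in Astrocyte and -1.28 in Oligodendrocyte. Srrm3, the Srrm4 paralog that also acts on microexons, rose from 0.213 CPM to 1.96 in Astrocyte, 2.23 in Neuron and 1.98 in Oligodendrocyte (log2 fold changes 1.29, 1.40 and 1.30). Raver2, a PTB-binding cofactor, rose from 12.3 to 67.8, 41.2 and 59.3 CPM (adjusted p 1.10e-12 in Astrocyte, with 2.37 on the log2 scale), while its paralog Raver1 fell by 1.00, 1.46 and 0.83 on that scale.

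Within the ELAV-like family, whose members stabilise and splice neuronal mRNAs, Elavl3 rose from 17.8 ± 0.867 CPM in NSC (SD, n = 3) to 44.4 in Astrocyte, 90.9 in Neuron and 178.3 in Oligodendrocyte (log2 fold changes 1.27, 2.28 and 3.25). Elavl4 fell in all 3 media (-0.90, -0.41 and -1.19). Elavl2 fell in Astrocyte and Oligodendrocyte (-0.59 and -1.01) and did not pass in Neuron (0.16, adjusted p 0.15). Among the Celf genes, Celf3 rose in every medium (2.13, 2.23 and 1.67), as Celf4 did, and the broadly expressed Celf1 (-0.84, -1.06 and -0.67) and Celf2 (-1.05, -1.10 and -1.41) fell. Celf5 rose in Astrocyte (0.51) and Oligodendrocyte (1.41) but was at -0.05 in Astrocyte after quantile normalization, and Celf6 did not reach the filter. Of the muscleblind genes, Mbnl2 rose (0.43, 0.58 and 0.58), Mbnl1 fell (-0.76, -0.86 and -0.55), and Mbnl3 was at most 0.0833 CPM in any group mean. Khdrbs2, which encodes a neural STAR-family protein, rose in all 3 media (1.14, 2.26 and 3.22), and was higher in Oligodendrocyte than in Neuron (8.68 against 4.02 CPM; log2 difference 0.96).

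General splicing factors mostly fell. All 20 listed hnRNP genes fell in Astrocyte and in Oligodendrocyte, and 18 of 20 fell in Neuron with none higher, where 35.6%, 32.2% and 39.6% of all tested genes were lower. The median log2 fold changes of the list were -1.04, -0.85 and -1.11, beside 0.15, 0.19 and 0.06 over all tested genes. The largest falls in Neuron were Hnrnpa3 (761.3 to 173.6 CPM, -2.13), Hnrnpd (378.7 to 95.4 CPM, -1.98) and Hnrnpab (850.6 to 225.4 CPM, -1.91), abundant nuclear RNA-binding proteins. Of 13 SR-protein genes, which mostly promote exon inclusion, 2 rose and 11 fell in Astrocyte, 2 rose and 10 fell in Neuron, and none rose and 10 fell in Oligodendrocyte, with medians of -0.78, -0.94 and -0.93. Tra2b (271.1 to 81.7 CPM, -1.72), Srsf3 (333.0 to 112.9 CPM, -1.55) and Srsf1 (573.5 to 204.7 CPM, -1.48) led in Neuron. The counts of these 3 lists in Neuron vs NSC did not change without Neuron replicate 2. Ptbp1, itself an hnRNP protein (hnRNP I), had a fall in Neuron (-1.72) that lay within the range of these lists.

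**Figure D4:**
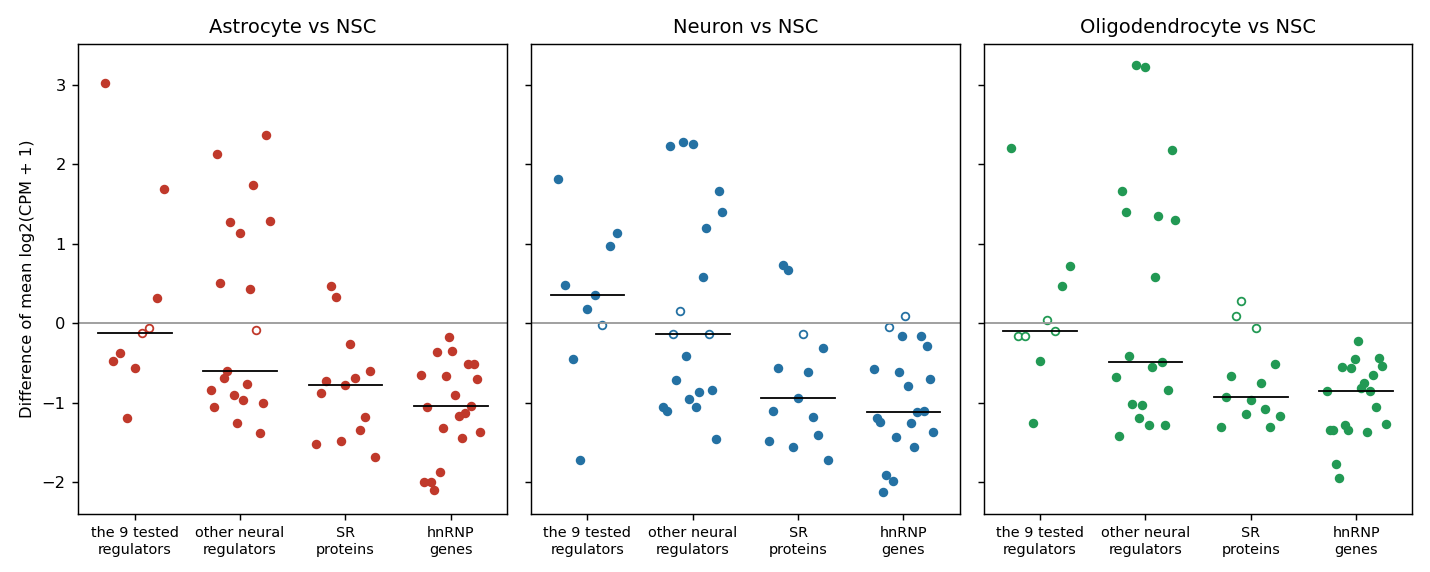
Difference of mean log2(CPM + 1) from NSC (vertical) for each tested gene of the 9 regulators, 19 other neural regulators, 13 SR-protein genes and 20 hnRNP genes in each medium; filled points passed an adjusted p of 0.05 in limma, and bars are list medians. The hnRNP points lie below 0 except 1 open point in Neuron, while both lists of neural regulators spread to both sides.

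The list of genes tied to these regulators held 4. Rest, the repressor of neuronal genes that also acts on Srrm4, fell a little in each medium (-0.23, -0.23 and -0.28 on the log2 scale; adjusted p 0.00784, 0.00817 and 0.00447), from 39.0 ± 2.19 CPM in NSC (SD, n = 3) to 31.9 to 33.2 CPM. Its corepressor Rcor1 fell by a similar amount in each medium (-1.08, -1.07 and -1.07). Dlg4, whose mature message needs an exon that PTBP proteins repress, fell in each medium (-0.60, -0.60 and -0.66). Bak1, a cell-death gene with a neural microexon under PTBP control, fell in Astrocyte and Neuron (-0.22 and -0.73) and rose in Oligodendrocyte (0.45). These are gene-level values and do not show which exons were used.

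For 4 of the regulators the genes with the most similar profile over the 11 libraries were sought by Pearson's r. The 8906 genes searched were tested genes whose mean was 10 CPM or more. The regulators themselves and genes with no symbol or a Gm or Rik name were left out. The 11 libraries form 4 groups and share their replicates and scaling, so a high r mostly restates the order of the group means. Ptbp1 was most like Chaf1a (r = 0.9991), Hirip3 (0.9989) and Actl6a (0.997), which encode chromatin assembly and remodelling factors; Chaf1a went from 68.8 CPM in NSC to 3.32 in Neuron, a larger fold than Ptbp1. Ptbp2 was most like Nsg1 (0.9893), Sept7 (0.9886; the table gives its symbol as a date, ENSMUSG00000001833) and Atf7ip (0.9877). Srrm4 was most like Itpkb (0.9864), Gpr179 (0.9861) and Dlx1 (0.986), of which Dlx1, an interneuron homeobox gene, was at 3.79 CPM in NSC, 45.5 in Astrocyte, 24.2 in Neuron and 10.7 in Oligodendrocyte. Qk was most like Kdm6a (0.9885), Zfp266 (0.9708) and Frmd4a (0.9666).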

How the data were processed

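Poly(A) RNA libraries (TruSeq Stranded mRNA, HiSeq) came from 11 samples in 4 groups. The authors deposited CPM values with 2 decimals for 37991 genes on build mm9, per the file headers. The submitters' processing notes name bcl2fastq 1.8.4, TopHat2 2.0.8, HTSeq 0.6.1, edgeR 3.2.4, R 3.0.0 and HOMER with build NCBIM37; the sources used here give no filters, strand setting or annotation release. The spacing of low values gave depth (1 read was worth 0.0151 to 0.0203 CPM). After rounding only 24.1% to 61.5% of low values lay within 0.1 read of a whole number, so count tests were not used.

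The 13342 genes that reached 1 CPM in 2 or more libraries were fitted on log2(CPM + 1) with limma 3.58.1 in R 4.3.3: 1 mean per group over all 11 libraries, eBayes with a trend (7 residual, 5.96 prior degrees of freedom). P-values were adjusted by Benjamini-Hochberg over all tested genes within each of 6 comparisons. The script was tested on simulated data. Balances were tested by enumerating every assignment of libraries to groups in Python 3.11.15 (exact permutation test). The difference of day 4 from NSC was tested two-sided over all 11 libraries. The test among the 3 media used the 8 day 4 libraries and the upper tail of the F statistic, the variation between media over that within them. Coordinates of genes are those of the table; promoter and exon coordinates are GRCm38. Replicates are called biological in the labels, with no animal or culture named. The limma p-values therefore weigh a difference against the spread between these libraries, and the permutation p-values rank it among reassignments of them.

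The regulators and the other lists were chosen with earlier results of these data known. Named were all regulators, Ptbp3, Srrm3, Elavl2 to Elavl4, Celf1 to Celf6, Mbnl1 to Mbnl3, Rest, Dlg4 and Bak1, the 3 largest called changes in Neuron vs NSC of the splicing lists (marker lists are given by sums), and the 3 most similar genes for 4 regulators. Raver1, Raver2, BC005764 and the markers named singly were added after their values were seen.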

Additional observations from a re-analysis of the deposited data

Results flagged for a closer look

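For each regulator below, the change from NSC differed between 2 media by the direct contrast, on the log2(CPM + 1) scale with limma's adjusted p under 0.05. These are the same contrasts as in the results, set out by gene. The change in Astrocyte minus that in Neuron was 0.53 for Ptbp1, -0.74 for Ptbp2, -0.96 for Nova1, -0.66 for Rbfox3, 0.55 for Srrm4, 1.21 for Celf4 and -0.48 for Qk. The change in Oligodendrocyte minus that in Neuron was 0.47 for Ptbp1, -0.66 for Ptbp2, -0.65 for Nova1, 0.29 for Nova2, -0.51 for Rbfox3, -0.41 for Srrm4, 0.39 for Celf4 and -0.33 for Qk. The change in Oligodendrocyte minus that in Astrocyte was 0.31 for Nova1, -0.96 for Srrm4 and -0.82 for Celf4. Ptbp2 moved in opposite directions from NSC, higher in 1 medium and lower in 2, and Nova1 was higher in 1 and lower in 1. Every difference between 2 media uses the same NSC libraries on both sides, so it is the difference between those media.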

How the results depend on the processing

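Of 54 values (9 regulators in 6 comparisons), 34 kept direction and call under all 21 alternatives. The others gave 17 reversed, 23 weaker and 17 newly called values. The count of called regulators in Oligodendrocyte vs NSC rose from 5 to 8 under median-of-ratios scaling, which took the all-gene median there from 0.19 to 0.01. All other counts stayed within 1.5 times, including the replicate block.

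Leaving out 1 library, the count of called regulators ranged over 6 to 7 in Astrocyte vs NSC, 8 to 9 in Neuron vs NSC, 5 to 7 in Oligodendrocyte vs NSC, 7 to 8 in Astrocyte vs Neuron, 6 to 8 in Oligodendrocyte vs Neuron and 2 to 4 in Oligodendrocyte vs Astrocyte. The balance difference of day 4 from NSC ranged over -1.22 to -1.02 (exact permutation p 0.0167 to 0.0889; the call was lost without NSC replicate 1, 2 or 3, and at p 0.05 without Neuron replicate 1 or 3), and the span among media over 1.21 to 1.31.

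Values that reversed were these log2 fold changes. Quantile normalization gave -0.36 for Rbfox3 and -0.047 for Celf5 in Astrocyte vs NSC, 0.078 for Rbfox2 in Neuron vs NSC, -0.19 for Rbfox3 and -0.17 for Qk in Oligodendrocyte vs NSC, and -0.028 for Nova2 in Astrocyte vs Neuron. Median-of-ratios scaling gave -0.16 for Qk in Oligodendrocyte vs NSC and -0.026 for Nova2 in Astrocyte vs Neuron. Rescaling without mitochondrial genes gave 0.024 for Rbfox2 in Neuron vs NSC. Leaving out 1 library, Rbfox2 ranged over -0.12 to 0.17 in Neuron vs NSC, -0.23 to 0.061 in Astrocyte vs Neuron, -0.26 to 0.029 in Oligodendrocyte vs Neuron and -0.071 to 0.0084 in Oligodendrocyte vs Astrocyte. Qk ranged over -0.011 to 0.067 in Oligodendrocyte vs NSC and Nova2 over -0.032 to 0.16 in Astrocyte vs Neuron. The cause was not tested.

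Deviations from the group mean correlated at r -0.51 to 0.42 over 15 pairs of same-numbered libraries, 6 of them above 0.1. For other pairs r was -0.54 to 0.54 over 30, with 7 above 0.1. With 2 or 3 libraries in a group these deviations are tied to each other. The check therefore cannot decide whether same-numbered libraries shared a litter, day or batch. With the replicate block the balance tests gave exact p 0.0417 over 48 arrangements and 0.0278 over 72, and Nova1 in Oligodendrocyte vs NSC was called (-0.19, adjusted p 0.0332). The related lists were also counted in Neuron vs NSC without Neuron replicate 2, chosen after seeing the data, with the same counts. Depth limits Rbfox1, Rbfox3 and Srrm4 most. Fold changes of genes under about 3 CPM move with the pseudocount. Among the regulators the pseudocount changed the call only for Rbfox3 in Astrocyte vs NSC (at 5) and Srrm4 in Oligodendrocyte vs Neuron (at 0.1).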
